A study of Mus musculus with 7 samples.

Results

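Potassium channel genes were followed across 7 tissues of the mouse, as the names in the deposited table that consist of Kcn, a subfamily letter or letters and a number. This rule found 92 genes of 50226 gene names, and all 92 are protein-coding in the annotation. RNA-Seq had been done on cortex, skeletal muscle, liver and kidney and on 3 adipose depots, which were brown (BAT), visceral (VAT) and subcutaneous (SCAT). All 7 libraries came from wild-type C57BL/6 mice (C57BL/6N in the paper) at 36 weeks of age, on a diet labelled NCD. Total RNA was depleted of ribosomal RNA and made into strand-specific paired-end libraries. Each tissue has 1 library, and the labels do not say how many animals it holds, so no difference between tissues has a replicate check and no test was run.

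Potassium channels let potassium ions leave or enter the cell along their gradient, and they set the resting membrane potential, end action potentials and, in epithelia, return potassium to the lumen or the blood. The genes code for several classes of pore-forming subunits. Voltage-gated (Kv) channels open on depolarisation, inwardly rectifying (Kir) channels pass current best near the resting potential, and tandem-pore-domain (K2P) channels carry leak current. A further class (KCa/KNa) holds channels gated by intracellular calcium or sodium and the related Kcnu1. The silent Kv subunits form no channel on their own and modify others, and auxiliary subunits bind to the pores without lining them. Among the 92 genes were 30 Kv, 10 silent Kv, 15 Kir, 14 K2P, 8 KCa/KNa and 15 auxiliary genes.

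The pore-forming members share a short signature in the selectivity filter, where the backbone of a glycine, a tyrosine or phenylalanine and a second glycine coordinates the potassium ion. This signature was searched in frame in 1 annotated coding sequence a gene (the longest), as GGNTANGGN, or as the same codons with TTT or TTC in the middle. It was present in all 77 of the pore-forming members and in 0 of the 15 auxiliary members, against 2892 of 21756 protein-coding genes (13.3%). The tyrosine form was present in 62 of the 77 (80.5%) and in 6.04% of all coding sequences. The 15 with the phenylalanine form only were 7 of the 8 Kcnh genes, Kcnj8 and Kcnj11, Kcnk2, Kcnk12 and Kcnk13, and Kcnt1, Kcnt2 and Kcnu1. The stretches of 45 bases below surround the signature, in capitals, in members that led the kidney, skeletal muscle, cortex or BAT within their class, and each lies within a single coding exon of GRCm38.
Kcnj16 (kidney, chr11:111024892-111024936, plus strand): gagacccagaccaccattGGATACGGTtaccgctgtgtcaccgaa
Kcnj1 (kidney, chr9:32396693-32396737, plus strand): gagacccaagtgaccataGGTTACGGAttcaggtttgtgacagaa
Kcnj15 (kidney, chr16:95295968-95296012, plus strand): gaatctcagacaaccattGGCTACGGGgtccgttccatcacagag
Kcnj2 (skeletal muscle, chr11:111072195-111072239, plus strand): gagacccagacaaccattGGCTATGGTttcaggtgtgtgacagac
Kcnj4 (cortex, chr15:79485349-79485393, minus strand): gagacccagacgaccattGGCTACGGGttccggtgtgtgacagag
Kcnj8 (BAT, chr6:142566430-142566474, minus strand): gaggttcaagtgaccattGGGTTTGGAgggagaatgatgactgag
Kcna7 (skeletal muscle, chr7:45409449-45409493, plus strand): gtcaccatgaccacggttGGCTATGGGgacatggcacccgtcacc
Kcna2 (cortex, chr3:107105212-107105256, plus strand): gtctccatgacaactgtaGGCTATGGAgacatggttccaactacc
Over these stretches, pairs of the 6 Kir genes share between 22 of 45 bases (48.9%, Kcnj16 and Kcnj8) and 40 (88.9%, Kcnj2 and Kcnj4). The Kv genes Kcna7 and Kcna2, which led in skeletal muscle and cortex, share 34 of 45 (75.6%). Pairs of a Kir and a Kv gene share between 13 (28.9%, Kcnj8 and Kcna7) and 25 (55.6%, Kcnj2 and Kcna2), a range that overlaps that of the Kir pairs through Kcnj8.

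The authors deposited FPKM, the number of fragments scaled for transcript length and library size, as cuffdiff estimated it for merged loci. Fragment counts are not part of the table, so the depth behind a value and its precision are unknown. A gene was called expressed when it reached 1 FPKM in any tissue. It was called enriched when, in addition, log2(FPKM + 0.1) in its highest tissue exceeded that in each other tissue by 2 or more (4-fold). The difference to the next highest tissue on this scale is called the log2 ratio below, and it understates the ratio of low values. A gene with a locus on each strand took the values of the locus with the higher FPKM, which could lie on the strand opposite to the gene, and the calls lost on the annotated strand are given below. All 5 neuronal markers were highest in cortex and all 6 nephron markers in kidney. Of the hepatocyte markers, 3 of 4 were highest in liver, where Alb has no value here, and 3 of 4 skeletal muscle markers were highest in skeletal muscle, where Myh4 has none. Ucp1 and Cidea were highest in BAT, while the third brown adipocyte marker, Ppargc1a, was highest in kidney (7.37 FPKM, against 6.20 in BAT). The adipocyte markers Adipoq and Lep were highest in VAT and Plin1 and Cidec in BAT. In SCAT none of these 4 was highest, and Adipoq had 109.6 FPKM there, so none of the adipocyte markers places this depot apart from the other two. Several libraries also held transcripts of other tissues. Of the epididymal markers, 3 of 4 were above 1 FPKM in VAT, with a sum of 2639 FPKM there and of at most 1.99 elsewhere. VAT also had all 4 hepatocyte markers above 1 FPKM, with a sum of 310.7 FPKM that was mostly Alb (252.7). All 6 lymphocyte markers were above 1 FPKM in SCAT, with a sum of 154 FPKM there and of at most 4.83 elsewhere, and the 5 markers of pancreatic acinar cells summed to 101 FPKM. BAT held skeletal muscle transcripts, such as Ckm at 166 FPKM against 8592 in skeletal muscle. In bulk tissue, fewer cells of a type and less RNA per cell cannot be told apart.

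Potassium channel transcripts were concentrated in the cortex. Of the 92 genes, 74 were expressed in any tissue (69.8% of 21407 protein-coding genes were), and 60 of the 92 had at least 1 FPKM in cortex. The corresponding number was 24 in skeletal muscle, 18 in VAT, 18 in BAT, 16 in kidney, 13 in SCAT and 9 in liver. These counts are 65.2% of the members in cortex and 9.78% to 26.1% in the other tissues, whereas the share of protein-coding genes at or above 1 FPKM was between 49.4% and 52.4% in every tissue. The counts rest on the highest locus of each gene. On the annotated strand 50 of the 92 reached 1 FPKM in any tissue, so the cortex share is lower there. The share of protein-coding genes was not computed for that strand. Of the 74, 39 reached 1 FPKM in a single tissue, against 15.7% of expressed protein-coding genes. That tissue was the cortex for 33, against 6.83%. At the other end, 4 of the 74 reached 1 FPKM in all 7 tissues, against 52.5%. The cortex was the highest tissue of 47 of the 74 (63.5%), against 21.1% of expressed protein-coding genes.

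Of the 74 expressed members, 42 (56.8%) were enriched in a tissue, against 21.4% of expressed protein-coding genes. The cortex had 32 enriched members (43.2%, against 8.21% of expressed protein-coding genes). Skeletal muscle had 5 (6.76%, against 3.38%), kidney 4 (5.41%, against 2.48%) and BAT 1 (1.35%, against 0.757%). No member was enriched in liver, VAT or SCAT, where 3.39%, 1.22% and 1.94% of protein-coding genes were. Outside the cortex these counts are too small to be read against the background. By class, 10 of 12 expressed Kir genes were enriched, 14 of 24 Kv, 5 of 8 silent Kv, 8 of 12 auxiliary, 4 of 10 K2P and 1 of 8 KCa/KNa genes. The Kir genes were split between the kidney (3), the cortex (4) and skeletal muscle (3), and the enriched silent Kv genes were all in cortex.

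**Figure D1:**
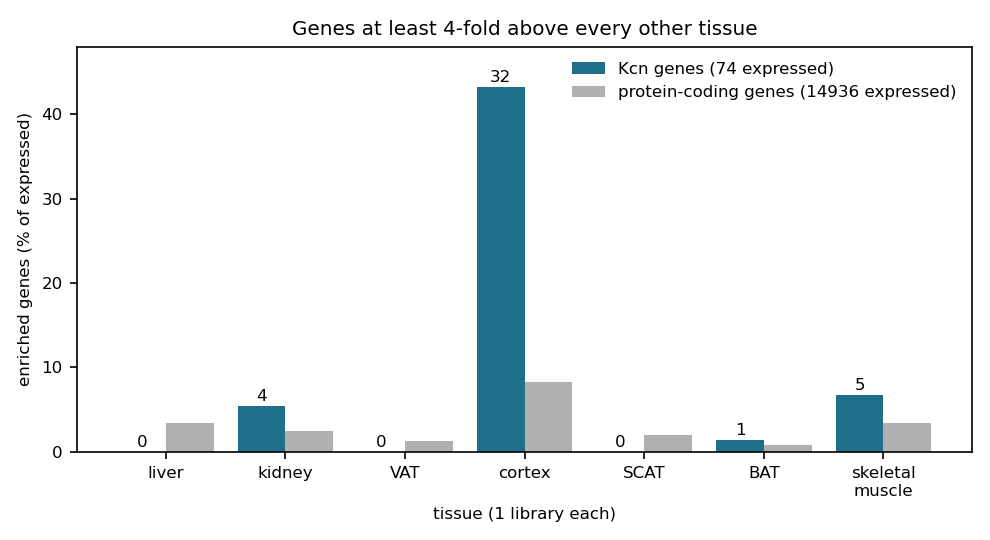
Bars give the share of expressed genes, in percent, that were enriched in each tissue, for the 74 expressed Kcn genes (dark, with their number above) and for 14936 expressed protein-coding genes (grey). The cortex bar of the Kcn genes stands at 43.2%, against 8.21%, and liver, VAT and SCAT have no Kcn bar.

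**Figure D2:**
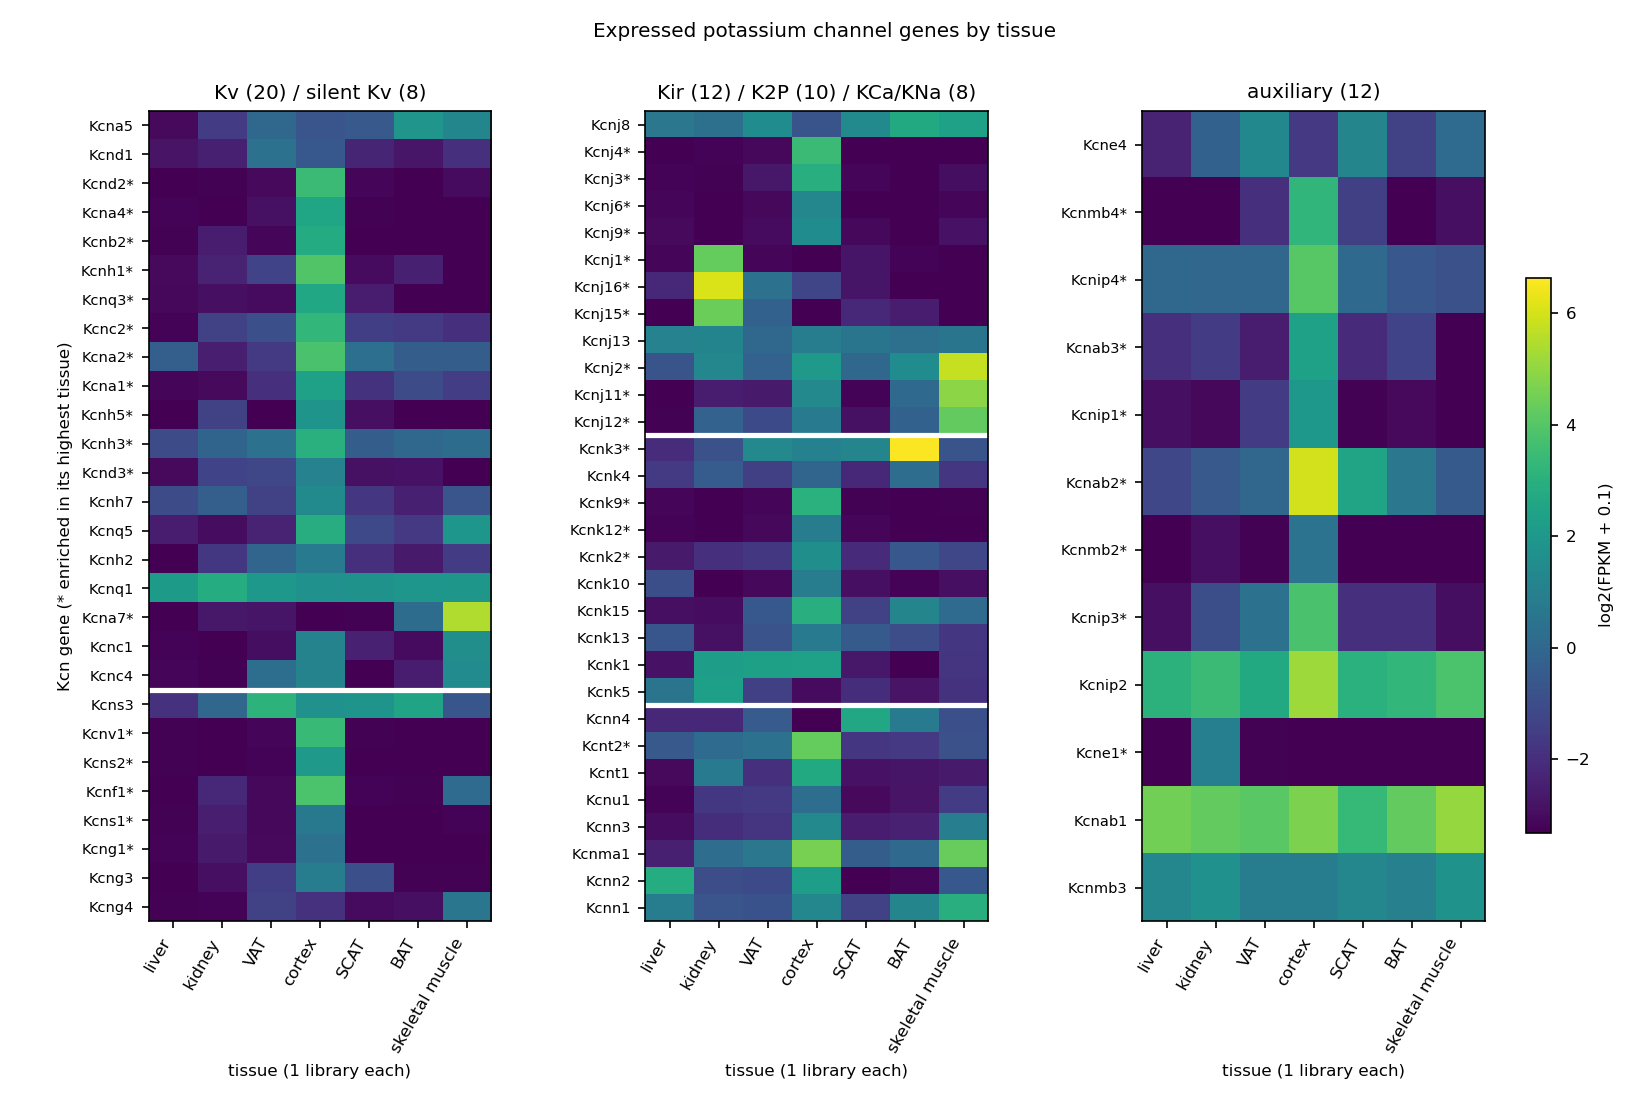
Colour gives log2(FPKM + 0.1) of 70 expressed Kcn genes (rows, by channel class, with white lines between classes) in the 7 tissues (columns, 1 library each), and an asterisk marks the 40 of them that were enriched. Most rows are brightest in the cortex column, Kcnj1, Kcnj15 and Kcnj16 in kidney, Kcnj2, Kcnj11, Kcnj12 and Kcna7 in skeletal muscle, and Kcnk3 in BAT.

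The kidney expressed a set of inward rectifiers at high level. Kcnj16 codes for Kir5.1, a subunit of basolateral channels of the distal nephron. It had 66.8 FPKM in kidney, 1.25 in VAT, 0.326 in cortex, 0.120 in liver and 0.0489 in SCAT, and it was listed at 0 in BAT and skeletal muscle (log2 ratio 5.63). Kcnj15, which codes for Kir4.2, had 21.3 FPKM in kidney, 0.745 in VAT, 0.120 in SCAT and 0.0678 in BAT, and it was listed at 0 in liver, cortex and skeletal muscle (log2 ratio 4.66). Kcnj1 codes for ROMK, the channel through which the thick ascending limb and the collecting duct secrete potassium. It had 19.7 FPKM in kidney and at most 0.0494 in any other tissue, the largest log2 ratio outside the cortex (7.05). This rank rests on the opposite strand and on the pseudocount of 0.1. On the annotated strand the log2 ratio of Kcnj1 was 4.96, below Kcnj16 (5.63) and Kcna7 (5.02). With a pseudocount of 1 it was 4.30, below Kcnj16 (4.91), Kcnk3 (4.80) and Kcna7 (4.45). Kcnj16, Kcnj15 and Kcnj1 made up 74.8% of the summed FPKM of all pore-forming members in kidney, and Kcnj16 alone 46.4%.

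Other potassium channel genes of the kidney had lower values. Kcne1, the auxiliary subunit minK, had 1.90 FPKM in kidney, 0.00318 in VAT and 0 in each of the other tissues (log2 ratio 4.27). The call was lost on the annotated strand, where Kcne1 had 0.197 FPKM in kidney (log2 ratio 1.39), and with a pseudocount of 1 (1.53). Kcnq1, the Kv pore that minK binds, had its highest value in kidney too, at 7.03 FPKM, but was between 3.16 and 4.21 FPKM in the other 6 tissues and was not enriched. Kcnk5, the alkaline-activated K2P channel TASK2 of the proximal tubule, had 4.89 FPKM in kidney, 1.32 in liver and at most 0.272 elsewhere, a log2 ratio of 1.82, just under the threshold. Kcnk1 was of similar level in cortex (5.08 FPKM), VAT (5.002) and kidney (4.53) and at most 0.182 in the other tissues. Kcnma1 had 1.09 FPKM in kidney, and Kcna10 was listed at 0 there. Kcnj10, which codes for Kir4.1, the usual partner of Kir5.1, had at most 0.1002 FPKM in any tissue, cortex and kidney included. Its value comes from a merged locus whose bounds hold 9 other protein-coding genes.

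Skeletal muscle had 5 enriched members, 3 of them inward rectifiers. Kcnj2 codes for Kir2.1, which holds the resting potential of the fibre. It had 54.1 FPKM in skeletal muscle, 3.97 in cortex, 2.79 in BAT, 2.35 in kidney, 0.912 in SCAT, 0.770 in VAT and 0.494 in liver (log2 ratio 3.73). Kcnj12, its relative Kir2.2, had 18.8 FPKM in skeletal muscle, 1.63 in cortex and at most 0.770 elsewhere (log2 ratio 3.45). These values come from the opposite strand, and on the annotated strand Kcnj12 had 0.632 FPKM in skeletal muscle and was not called expressed. Kcnj11 is the pore of the ATP-sensitive channel, which links potassium conductance to the energy state of the cell. It had 29.8 FPKM in skeletal muscle, 2.46 in cortex, 0.960 in BAT and at most 0.0676 elsewhere (log2 ratio 3.55). Abcc9, the sulfonylurea receptor SUR2 that pairs with this pore, was also enriched in skeletal muscle, with 65.2 FPKM there and 10.9 in liver, the next highest (log2 ratio 2.57). Abcc8, the receptor SUR1, had at most 1.53 FPKM (cortex).

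Of the Kv genes, Kcna7, which codes for Kv1.7, was enriched in skeletal muscle. It had 43.7 FPKM in skeletal muscle, 1.04 in BAT, 0.0581 in kidney, 0.0494 in VAT and 0.00506 in SCAT, and it was listed at 0 in liver and cortex (log2 ratio 5.26). Kcnc1 and Kcnc4, of the Kv3 family, had 2.90 and 2.71 FPKM in skeletal muscle against 2.09 and 2.07 in cortex, an order that turned with median-ratio scaling of the libraries, and Kcnq5 had 3.65 against 7.28. On the annotated strand Kcnc1 had 0.722 FPKM in skeletal muscle and 0.851 in cortex. The large-conductance calcium-activated channel gene Kcnma1 reached 19.8 FPKM in skeletal muscle and 24.4 in cortex, with at most 1.43 elsewhere. Lrrc38, which codes for a gamma subunit of this channel, was enriched in skeletal muscle (8.35 FPKM, log2 ratio 4.20). Kcnn1, a small-conductance calcium-activated channel, had 7.51 FPKM in skeletal muscle and 2.36 in cortex. Kcne3 stayed at or below 0.980 FPKM in every tissue. In BAT, Kcna7 stood at 2.38% and Kcnj2 at 5.15% of their skeletal muscle FPKM, beside 1.93% for Ckm, 1.02% for Myh1 and 3.13% for Tnnt3. The part of skeletal muscle transcripts in these BAT values was not tested.

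BAT had a single enriched member, the K2P gene Kcnk3, which codes for the acid-sensitive leak channel TASK1. Kcnk3 had 95.1 FPKM in BAT, 2.45 in VAT, 2.21 in SCAT, 2.00 in cortex, 0.496 in skeletal muscle, 0.453 in kidney and 0.140 in liver (log2 ratio 5.22). This was the highest FPKM of any member in any tissue, and it made up 68.8% of the summed FPKM of the pore-forming members in BAT. It comes from the locus on the opposite strand. On the annotated strand Kcnk3 had 4.64 FPKM in BAT and was still enriched there, and it lay below the 66.8 FPKM of Kcnj16 in kidney, which that strand also gives. Kcnj8, the vascular ATP-sensitive pore Kir6.1, followed with 6.63 FPKM in BAT, 5.11 in skeletal muscle, 2.81 in VAT, 2.59 in SCAT and at most 1.46 elsewhere. Kcna5 had 3.53 FPKM in BAT and 2.25 in skeletal muscle and stayed below 1 FPKM in the other tissues. The values of Kcna5 come from the opposite strand, and on the annotated strand it had 0.0419 FPKM in BAT and was not called expressed. Of the 4 endothelial markers, Pecam1, Cdh5 and Tek were also highest in BAT, with 26.6, 11.6 and 11.9 FPKM, and Kdr was highest in liver. All 4 were above 1 FPKM in every tissue but cortex, with a sum of 58.8 FPKM in BAT, 44.9 in SCAT and 43.0 in VAT, and the part of vessels in the values of Kcnj8 and Kcna5 was not tested.

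In the white depots no member was enriched. In VAT the silent subunit gene Kcns3 led the pore-forming members with 8.61 FPKM, followed by 5.55 in BAT, 3.46 in SCAT, 3.23 in cortex and at most 0.867 elsewhere. This lead rests on the opposite strand, since on the annotated strand Kcns3 had 0.4997 FPKM in VAT, where Kcnk1 then led. Kcnk1 had 5.002 FPKM in VAT against 0.0554 in SCAT, and it was listed at 0 in BAT. Kcnj16 (1.25 FPKM) and Kcnj15 (0.745) had their second highest values in VAT, where the nephron markers summed to 0.525 FPKM with 0 of 6 above 1. Of the markers of epididymis, 3 of 4 were highest in VAT (Lcn8, at most 0.344 FPKM, was highest in liver). The epithelial keratins Krt14 (2.58 FPKM), Krt5 (2.48) and Krt19 (6.83) were highest in VAT, while Krt8 was highest in liver (46.4 FPKM). The part of epididymal and epithelial transcripts in the VAT values of Kcnk1, Kcnj16 and Kcnj15 was not tested. Kcnmb1, the BK subunit of smooth muscle, was low in all tissues, with 0.296 FPKM in VAT as its highest value. This value comes from the opposite strand and from a merged locus whose bounds hold 3 other protein-coding genes. On the annotated strand Kcnmb1 was highest in SCAT (0.149 FPKM, against 0.135 in VAT). Of the smooth muscle markers, Acta2 (126 FPKM), Tagln (28.5), Myh11 (9.05) and Cnn1 (8.10) were highest in VAT. Smtn was highest in skeletal muscle (12.1 FPKM, against 2.77 in VAT).

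In SCAT the calcium-activated gene Kcnn4, known from lymphocytes and red blood cells, had 6.01 FPKM, against 1.56 in BAT, 0.635 in VAT, 0.440 in skeletal muscle and at most 0.116 elsewhere. Its log2 ratio was 1.88, under the threshold, and 2.66 with median-ratio scaling. Kcna3, the Kv channel of T cells, had 0.0542 FPKM in SCAT and 0.147 in cortex. Kcnab2 had its second highest value in SCAT, at 5.52 FPKM. The lymphocyte markers in the same library ranged from 3.396 FPKM (Cd3e) to 50.6 (Ms4a1), and their part in the values of Kcnn4 and Kcnab2 was not tested. Kcne4, an inhibitory auxiliary subunit, was highest in the white depots, at 2.43 FPKM in VAT against 2.21 in SCAT and 1.03 in skeletal muscle, and Kcnd1 reached 1.23 FPKM in VAT. On the annotated strand Kcne4 had 0.294 FPKM in SCAT and 0.192 in VAT and Kcnd1 0.178 in VAT, so neither was called expressed.

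The liver had the fewest expressed members and no enriched one. Kcnn2, a small-conductance calcium-activated channel, was the single expressed member that was highest in liver, with 7.18 FPKM there, 4.72 in cortex and at most 0.568 elsewhere. It made up 28.6% of the summed FPKM of pore-forming members in liver, before Kcnq1 with 4.21 FPKM (16.8%) and Kcnj13 with 2.06 FPKM (8.23%). Hcn3, of the related hyperpolarisation-activated cation channels, was also highest in liver (6.77 FPKM, against 2.14 in kidney).

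In the cortex the 32 enriched members came from every class and ranged from 1.23 FPKM (Kcng1) to 62.7 FPKM (Kcnab2), with a median of 7.29 FPKM. Their median log2 ratio was 3.99, close to the 3.86 of the 1226 protein-coding genes enriched in cortex. In 26 of the 32 every other tissue was below 1 FPKM, and in 16 every other tissue was below 0.1 FPKM. The neuronal markers were below 1 FPKM in all other libraries. With a pseudocount of 1 the cortex calls of 11 members were lost, at log2 ratios of 1.07 to 1.99, which were those of Kcnd3, Kcng1, Kcnh3, Kcnh5, Kcnip1, Kcnj6, Kcnj9, Kcnk2, Kcnk12, Kcnmb2 and Kcns1.

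Among the Kv genes, 12 were enriched in cortex. Kcnq3, a subunit of the M current, which damps repetitive firing, had 6.20 FPKM in cortex and at most 0.0722 elsewhere (log2 ratio 5.19). Kcnd2, the A-type channel of dendrites, had 11.1 FPKM in cortex and at most 0.0238 elsewhere (log2 ratio 6.50), and its relative Kcnd3 had 2.06 FPKM (2.29). The axonal Kv1 genes Kcna1, Kcna2 and Kcna4 had 5.12, 13.6 and 5.67 FPKM in cortex, with log2 ratios of 3.42, 3.46 and 5.42. Kcnb2, of the delayed rectifiers, had 6.91 FPKM (5.36). On the annotated strand the calls of these 4 genes were lost, with 0.478 FPKM in cortex for Kcna1, 0.632 for Kcna2, 0.389 for Kcna4 and 0.284 for Kcnb2. Kcnc2, a Kv3 gene of fast-spiking interneurons, had 9.59 FPKM in cortex and at most 0.442 elsewhere (4.16). Of the ether-à-go-go family, Kcnh1 had 15.2 FPKM (log2 ratio 5.26), Kcnh3 7.86 (2.57) and Kcnh5 3.49 (3.22), while Kcnh7 (2.65 FPKM, 1.76) lay under the threshold.

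The silent Kv subunits enriched in cortex were Kcnv1 with 10.6 FPKM (log2 ratio 6.58), Kcnf1 with 14.2 (3.67), Kcns2 with 4.14 (5.29), Kcns1 with 1.55 (3.21) and Kcng1 with 1.23 (3.01). Outside the cortex, Kcnf1 reached 1.02 FPKM in skeletal muscle, and the other 4 stayed at or below 0.0785 FPKM. Of these 5 calls only that of Kcnv1 remained on the annotated strand, where Kcnf1 had 0.381 FPKM in cortex, Kcng1 0.211, Kcns1 0.191 and Kcns2 0.145. Of the Kir genes, Kcnj4 (Kir2.3) had 10.9 FPKM in cortex and at most 0.0158 elsewhere (6.57). The G-protein-gated channels, through which many transmitters slow neuronal firing, were represented by Kcnj3 with 7.66 FPKM (5.64), Kcnj6 with 2.38 (4.43) and Kcnj9 with 2.76 (4.34), each at or below 0.0555 FPKM in all other tissues. Of the K2P genes, Kcnk9 (TASK3) had 8.16 FPKM in cortex and at most 0.0131 elsewhere (6.19), Kcnk12 had 1.79 (4.04) and the mechanosensitive Kcnk2 (TREK1) had 3.01 (2.24). The sodium-activated channel gene Kcnt2 had 19.7 FPKM in cortex and 1.25 in VAT (3.87), and its relative Kcnt1 had 6.58 FPKM in cortex and 1.60 in kidney, with a log2 ratio of 1.97 that missed the threshold. On the annotated strand the calls of Kcnj4 (0.526 FPKM in cortex), Kcnk9 (0.903) and Kcnk12 (0.199) were lost.

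Auxiliary subunits had the highest values in cortex. Kcnab2, a cytoplasmic beta subunit of Kv1 channels, had 62.7 FPKM there (log2 ratio 3.48), and Kcnab3 had 5.05 (3.69). The KChIP genes, whose calcium-binding products attach to Kv4 channels, included Kcnip4 with 16.3 FPKM in cortex (3.94), Kcnip3 with 13.8 (3.36) and Kcnip1 with 3.84 (3.52). Kcnip2 was not enriched, with 36.0 FPKM in cortex and 6.53 to 14.1 in the other 6 tissues. Its locus also carries the name of Mgea5 and holds 2 other protein-coding genes, so its values in all 7 tissues, cortex included, cannot be told apart from those of Mgea5. The BK beta subunits Kcnmb4 and Kcnmb2 had 9.28 FPKM (4.66) and 1.28 FPKM (3.38) in cortex, and the call of Kcnmb2 was lost on the annotated strand (0.716 FPKM). Of 19 genes whose products associate with the channels or are related to them, 17 were expressed (against 69.8% of protein-coding genes). Of these 17, 9 were enriched in cortex (against 8.21% of expressed protein-coding genes), 2 in skeletal muscle (against 3.38%) and none in another tissue. The Kv4 partners Dpp10 and Dpp6 had 72.9 and 24.5 FPKM in cortex (log2 ratios 6.92 and 4.996). The Kv1 complex genes Lgi1, Adam22, Cntnap2, Cntn2 and Dlg4 had 15.8, 37.0, 24.9, 5.45 and 34.4 FPKM there, and the pacemaker channel gene Hcn2 had 9.16 FPKM. Amigo1, the Kv2 partner, was not enriched, with 11.6 FPKM in cortex and 9.93 in skeletal muscle.

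Summed over the 77 pore-forming genes, channel transcripts were highest in cortex (309 FPKM) and skeletal muscle (227), followed by kidney (144) and BAT (138), and low in VAT (46.5), SCAT (31.0) and liver (25.1). The make-up of these sums differed between tissues. Kir genes held 79.7% of the sum in kidney and 48.3% in skeletal muscle, and K2P genes held 72.2% in BAT, of which Kcnk3 gave 95.3%. Kv genes held 46.4% in cortex, 35.2% in skeletal muscle, 33.4% in VAT and 33.2% in SCAT, and KCa/KNa genes held 38.8% in liver. In cortex the highest member, Kcnma1, held 7.89% of the sum, and the highest 3 held 21.8%, against 56.3% for the highest 3 in skeletal muscle, 74.8% in kidney and 77.6% in BAT. The strand of the locus mattered for these sums. With loci on the annotated strand only, the sums were 171 FPKM in cortex, 120 in kidney, 79.8 in skeletal muscle, 26.0 in VAT, 23.1 in BAT, 20.9 in liver and 14.7 in SCAT, so that kidney came before skeletal muscle and VAT before BAT. The K2P share in BAT was then 37.2% and the Kir share in skeletal muscle 11.7%, where Kv genes led with 46.1%, while Kir genes in kidney kept 78.5%.

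**Figure D3:**
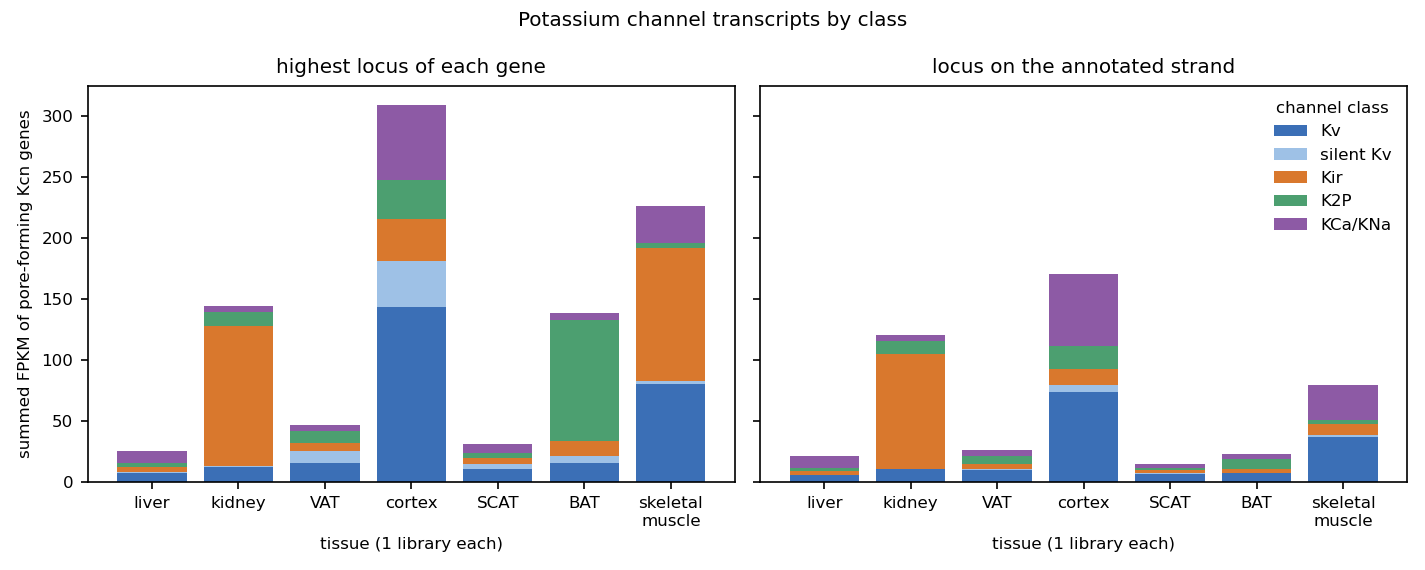
Stacked bars give the summed FPKM of the pore-forming Kcn genes in each tissue (1 library each), coloured by channel class, with the highest locus of each gene on the left and the locus on the annotated strand on the right. The sum in BAT drops from 138 to 23.1 FPKM and that in skeletal muscle from 227 to 79.8 FPKM, while kidney (144 and 120 FPKM) keeps its Kir bar.

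The table has no strand column, so strands were inferred from how the loci are ordered in it. By this inference the 92 genes had 176 loci, and 60 genes had a locus on both strands. For 47 of the 92 genes (51.1%) the locus with the highest FPKM, used above, lay on the strand opposite to the gene, against 18.5% of protein-coding genes. Among the expressed it was 43 of 74 (58.1%), against 20.4%. Among the 56 expressed members with loci on both strands, the opposite locus had the higher FPKM in 43, with a median ratio of 4.83 in the highest tissue and a range from 0.00321 to 84.1. Kcnk3 had 95.1 FPKM in BAT from the opposite locus and 4.64 from the annotated one, Kcnj2 had 54.1 and 2.13 in skeletal muscle, and Kcnj16 had 23.0 and 66.8 in kidney. The highest tissue was the same on both strands in 50 of the 56. When only loci on the annotated strand were used, 28 of the 42 calls of enrichment remained, in the same tissues (20 in cortex, 4 in skeletal muscle, 3 in kidney, 1 in BAT), and the other 14 genes fell below 1 FPKM. In all, 50 of the 92 were expressed on that strand, and Kcng3, which fell from 1.75 to 0.0560 FPKM in cortex, was among those that were not. Of the enriched members that kept their call, Kcnj1 had 3.48 FPKM in kidney, Kcnj11 3.84 and Kcna7 13.7 in skeletal muscle, and Kcnd2 1.95, Kcnh1 2.41, Kcnv1 2.86 and Kcnc2 6.31 in cortex. Kcnj8 had 1.75 FPKM in BAT, Kcnc4 1.11 in skeletal muscle and Kcnn4 2.66 in SCAT.

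**Figure D4:**
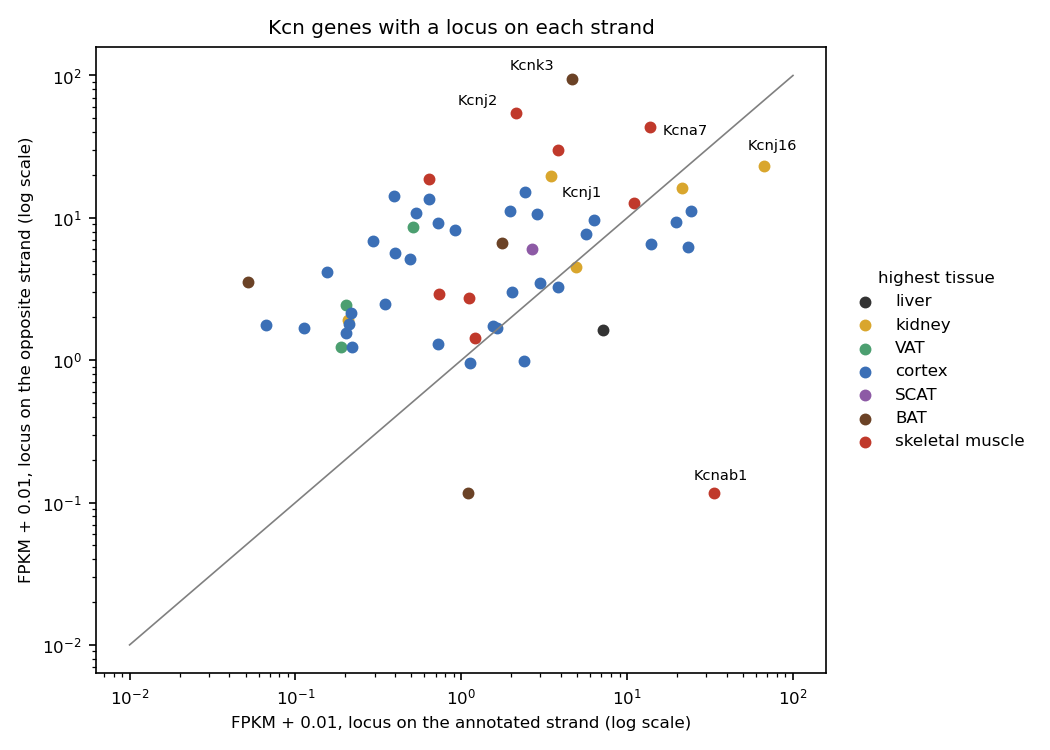
Each point is 1 of the 56 expressed Kcn genes with a locus on both strands, placed by its FPKM (+ 0.01, log axes) from the locus on the annotated strand (x) and on the opposite strand (y) in its highest tissue, which gives the colour. The grey line marks equal values, and 43 points lie above it, Kcnk3 and Kcnj2 among the highest.

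Kcnab1, Kcnip2, Kcnq1 and Kcnmb3 were the 4 members with at least 1 FPKM in every tissue. Kcnab1, a Kv1 beta subunit, was among the 5 highest members everywhere, from 10.1 FPKM in SCAT to 33.5 in skeletal muscle. Its locus bounds hold Ssr3, a broadly expressed gene of the endoplasmic reticulum on the other strand. Kcnab1 stood at 0.311 to 0.443 times the FPKM of Ssr3 in the 6 tissues other than cortex, and at 1.18 times in cortex. Kcnmb3 stood at 0.114 to 0.208 times the FPKM of Pik3ca, which lies within its bounds, in all 7 tissues. Kcnj13, between 0.920 and 2.13 FPKM in all tissues, stood at 0.0365 to 0.184 times Gigyf2. The part of these neighbours in the values of the members was not tested. In all, the locus bounds of 21 members, 14 of them expressed, hold another protein-coding gene. Among those enriched in cortex are Kcnj9, whose bounds hold 9 others, and Kcnh3, whose bounds hold 7. Without the 21 members, 26 were enriched in cortex, in place of 32.

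Within 100 kb of each other lie 9 pairs of neighbouring members, of which 3 had the same highest tissue. In 8 of the 9 pairs a gene stayed below 1 FPKM everywhere, and the exception is on chromosome 11 of GRCm38, where Kcnj16 (110968033 to 111027968) and Kcnj2 (111066164 to 111076821) lie 38.2 kb apart on the plus strand. Kcnj16 had 66.8 FPKM in kidney and was listed at 0 in skeletal muscle, and Kcnj2 had 54.1 FPKM in skeletal muscle and 2.35 in kidney. On chromosome 3, Kcna2 had 13.6 FPKM in cortex, while its neighbours Kcna3 and Kcna10 stayed at or below 0.147 and 0.370 FPKM. Kcnj1 and Kcnj5 on chromosome 9 were both highest in kidney, at 19.7 and 0.453 FPKM.

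Promoter sequences of GRCm38.p6 from RefSeq were matched to 67 of the 92 members, and Kcnk3, Kcnj11 and Kcne1 were among the other 25. For a member with several promoters, the one nearest to the annotated gene start was taken. For other protein-coding genes it was the first listed, so members and background were not chosen alike. Some member promoters lie far from the gene start, such as that of the kidney-enriched Kcnj1 (21492 bases). The 150 bases before the start are shown for the neighbours Kcnj16 and Kcnj2, for Kcnj15 of kidney and for Kcnj4 of cortex, with each CpG, a C followed by a G, in capitals.
Kcnj16 (kidney, chr11:110967883-110968032, plus strand): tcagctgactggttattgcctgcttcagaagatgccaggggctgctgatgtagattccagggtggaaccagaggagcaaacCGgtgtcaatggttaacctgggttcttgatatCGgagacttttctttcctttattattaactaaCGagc
Kcnj15 (kidney, chr16:95257408-95257557, plus strand): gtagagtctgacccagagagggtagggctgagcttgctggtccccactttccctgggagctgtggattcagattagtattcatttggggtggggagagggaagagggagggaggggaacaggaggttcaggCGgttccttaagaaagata
Kcnj2 (skeletal muscle, chr11:111066014-111066163, plus strand): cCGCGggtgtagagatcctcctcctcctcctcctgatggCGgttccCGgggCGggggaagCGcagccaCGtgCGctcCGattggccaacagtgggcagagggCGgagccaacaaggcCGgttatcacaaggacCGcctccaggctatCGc
Kcnj4 (cortex, chr15:79505242-79505391, minus strand): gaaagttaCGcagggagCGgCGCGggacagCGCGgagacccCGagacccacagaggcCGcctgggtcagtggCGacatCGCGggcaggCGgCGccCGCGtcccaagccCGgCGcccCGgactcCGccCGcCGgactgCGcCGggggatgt
These stretches hold 3 CpGs in Kcnj16, 1 in Kcnj15, 13 in Kcnj2 and 23 in Kcnj4. Over the 250 bases before the start, the 3 kidney-enriched members with a sequence had 1 to 3 CpGs, with a median of 2.0, and the 22 cortex-enriched members had 1 to 43, with a median of 15.0. The median was 8.0 over the 67 members and 10 over 16522 protein-coding genes. The E-box CAGCTG, which reads the same on both strands, was found in 15 of the 67 members (22.4%) and in 11.8% of protein-coding genes. It was found in 7 of the 22 cortex-enriched members (31.8%), 2 of the 3 kidney-enriched, 1 of the 3 skeletal muscle-enriched and 5 of the 25 expressed members that were not enriched (20.0%). On either strand, GGGCGG was found in 46.3% of members and 44.3% of protein-coding genes, and TATAAA in 2.99% and 11.9%. A match of letters is a description of the sequence and not a binding site.

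The remaining 18 members had less than 1 FPKM in every tissue, and 15 of them less than 0.5. They are Kcna3, Kcna6, Kcna10, Kcnh4, Kcnh6 and Kcnh8 of the Kv genes, the silent Kcng2 and Kcnv2, the Kir genes Kcnj5, Kcnj10 and Kcnj14, the K2P genes Kcnk6, Kcnk7, Kcnk16 and Kcnk18, and the auxiliary Kcne2, Kcne3 and Kcnmb1. The highest values among them were 0.980 FPKM (Kcne3 in VAT), 0.914 (Kcng2 in cortex) and 0.678 (Kcna6 in cortex). Most of them, such as Kcna3, Kcna6 and Kcng2, have a locus on the annotated strand only. Of the 60 members with a locus on both strands, 56 were expressed. A low value here can thus not be told apart from the lack of an opposite locus, and its part was not tested. Of the expressed members not described so far, Kcnk15 (7.68 FPKM), Kcnn3 (2.49), Kcnh2 (1.68) and Kcnk13 (1.67) were highest in cortex without being enriched. On the annotated strand Kcnn3 was highest in skeletal muscle (0.440 FPKM, against 0.339 in cortex) and Kcnk13 in liver (0.184, against 0.103), all below 1 FPKM. Kcnk4 had 1.09 FPKM in BAT, but its locus also carries the name of Catsperz, so the value cannot be told apart from that of Catsperz. Within 0.25 of the threshold on the log2 scale lay 10 members. Among them, Kcnk2 (2.24) was just inside, and Kcnt1 (1.97), Kcng4 (1.97, skeletal muscle), Kcnn4 (1.88, SCAT), Kcnk5 (1.82, kidney), Kcnu1 (1.82), Kcnk10 (1.81), Kcng3 (1.78) and Kcnh7 (1.76) were just outside.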

How the data were processed

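RNA-Seq of 7 tissues of the mouse was analysed, with 1 library per tissue. According to the methods and the processing notes, the authors trimmed reads with flexbar, filtered out ribosomal RNA with Bowtie2 2.2.9, aligned to GRCm38 (mm10, Ensembl annotation) with STAR 2.6.0c and assembled, merged and compared transcripts with Cufflinks 2.2.1 and Cuffdiff. Library type and scaling settings are not given in the sources used here. The authors deposited FPKM for 94339 loci in 21 pairwise comparisons. The deposited log2 fold changes, the authors' test statistic (a score) and the authors' p-values and q-values were not used. Depth and its precision are unknown.

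Loci with the status FAIL (151) were dropped, zeros with the status LOWDATA (in 83 loci) were taken as missing, and no member was affected by either. Names separated by commas were split, and a name with several loci took the values of its highest locus. In each chromosome the loci run in ascending series, read as the plus and then the minus strand, by which 75.3% of 62165 pairs of locus and name lay on the annotated strand. Positions count from 1. Genes, coding sequences and biotypes are from the GENCODE annotation of GRCm38, and 21407 protein-coding names formed the background. The rule for enrichment (pseudocount 0.1, minimum 1 FPKM, 4-fold, at least 3 other tissues with a value) was tested on simulated data.

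Named are the 5 highest members of each tissue, up to 10 enriched members a tissue with the largest log2 ratio and, for cortex, the largest of each subfamily, members known from textbooks, those within 0.25 (log2) of the threshold, and partner genes. Some genes that the rule covers are not reported here. Other members are named to complete a class or a neighbouring pair and were picked after their values were known. Members and lists were chosen with earlier results of these data known. Alternatives varied the pseudocount, minimum, fold, scaling, failed and low values, locus, shared loci and libraries. Python 3.11.15, pandas 2.3.3, NumPy 2.4.6 and matplotlib 3.10.9 were used.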

Additional observations from a re-analysis of the deposited data

How the results depend on the processing

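No paired analysis was possible because each tissue has 1 library and no result comes from a test. Over 15 alternatives, the number of members enriched in cortex (32) moved by more than 1.5 times under 3: it was 21 with a pseudocount of 1, 21 with a minimum of 5 FPKM and 20 with loci on the annotated strand. The number expressed was 44 with a minimum of 5 FPKM, in place of 74. Kcnn4 was the 1 member enriched in SCAT with a 2-fold rule (1), with median-ratio scaling (1) and without the BAT library (1), an alternative chosen after seeing the data. The K2P share in BAT was 37.2% and the Kir share in skeletal muscle 11.7% with loci on the annotated strand, also chosen after seeing the data. The cause was not tested. Counts in liver, kidney, VAT, BAT and skeletal muscle and in any tissue stayed within 1.5 times of the main count. Without SCAT or VAT there is no count for that tissue. Of the 62 members that the naming rule covers, 49 kept their side of the threshold with loci on the annotated strand, 11 that were enriched no longer met the rule and 2 had another tissue highest. Median-ratio scaling shifted the log2 values by 0.42 in VAT, 0.52 in SCAT, 0.20 in cortex, -0.09 in liver, -0.05 in kidney, -0.29 in BAT and -0.39 in skeletal muscle, and 52 of the 62 kept their side. It put another tissue first for Kcnab1 (-0.18), Kcnc1 (-0.11), Kcnc4 (-0.19), Kcnmb3 (-0.42) and Kcnk1 (-0.20), of which none was enriched, and the annotated strand did so for Kcnc1 (-0.21) and Kcnmb1 (-0.078) among these members, where each value is the log2 difference between the highest tissue in the text and the highest other tissue.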
